A study of Mus musculus with 35 samples.

Results

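Receptors for the Fc part of IgG and the paired immunoglobulin-like receptors PirA and PirB were followed through 7 genes of the mouse brain after closed head injury: Fcgr1, Fcgr3, Fcgr4, Fcgr2b, Fcer1g, Pira2 and Pirb. They were taken by name from a table of 21203 genes, each name matched 1 row, and all 7 passed the filter on low counts. The tissue, labelled left cortex, came from 34 male C57BL/6NCrl mice, 8 to 9 weeks old when the procedures began and perfused before dissection, with 1 RNA-seq library per mouse. Injured mice received PBS, mesenchymal stromal cells (MSCs) or IL-4 MSCs on day 5, and tissue was taken at 1 or 3 weeks post injury (wpi), that is 2 or 16 days after the injection. Each of these 6 groups had 5 mice, except PBS at 3 wpi with 4, since the authors excluded a mouse. The 5 Sham mice (2 taken with the first time point, 3 with the later one) were neither injured nor injected. Per the study, they otherwise underwent the steps of the surgery. Injury and injection therefore cannot be told apart in comparisons with Sham. The MSCs were purchased primary bone marrow cells of 1 lot from C57BL/6N mice, and IL-4 MSCs were the same cells transfected with synthetic IL-4 mRNA. Transcripts of the injected cells therefore cannot be told apart from those of the host. The injection was aimed at the left hippocampus and the part of the hemisphere around it was dissected, so regions other than cortex may be present.

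Fc gamma receptors bind IgG on microglia, macrophages, monocytes and neutrophils. The activating receptors encoded by Fcgr1, Fcgr3 and Fcgr4 signal through the common gamma chain, the product of Fcer1g, which carries an immunoreceptor tyrosine-based activation motif (ITAM) that recruits Syk. Fcgr2b encodes the only inhibitory Fc gamma receptor of the mouse, whose cytoplasmic tail carries an inhibitory motif (ITIM) that recruits the phosphatase SHIP1 (Inpp5d). The paired receptors repeat this arrangement. Activating PirA receptors, one of them encoded by Pira2, depend on the gamma chain, whereas PirB carries ITIMs, binds MHC class I, and in the nervous system has been described as a receptor for the myelin-associated growth inhibitors Nogo, MAG and OMgp. The balance of activating and inhibitory receptors sets how strongly a myeloid cell responds to immune complexes.

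The libraries held 29838423 to 41554322 estimated counts, and 3 counts, taken as the lowest detectable level, corresponded to 0.0722 to 0.101 CPM (estimated counts scaled to the library total). This level covers counting error only. Pan-myeloid, microglial and monocyte markers were present in every group, and cortical neuron markers summed to between 3162 and 4260 CPM in every library. Marker genes of striatum varied between 351 and 3314 summed CPM, the highest level being in IL-4 MSCs at 3 wpi. In 3 libraries the myeloid transcripts were high for their group. Mouse 5 of MSCs at 3 wpi held 257 summed CPM of 7 pan-myeloid markers, against 180 to 206 in the other 4 mice of its group, Sham mouse 5 held 223 against 140 to 148, and mouse 3 of MSCs at 1 wpi held 383 against 295 to 312. Values without them are given where a call turned on them. In bulk tissue a lower number of cells of a type and a lower RNA content per cell cannot be told apart.

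In GRCm38, 4 of the 7 genes lie within 276 kb of chromosome 1: Fcgr2b at 170958617 to 170976547, Fcgr4 at 171018920 to 171029761, Fcgr3 at 171051174 to 171064935 and Fcer1g at 171229572 to 171234365, all on the minus strand except Fcgr4. Fcgr1 is on chromosome 3 at 96282909 to 96293969, and Pirb (3711409 to 3720391) and Pira2 (3836812 to 3845051) span 134 kb of chromosome 7, all 3 on the minus strand. The sequences before the start of a transcript of these genes are shown as a description, and because the PirA and PirB windows are nearly the same. Whether they bear on the levels of the 7 genes was not tested. The windows of 150 bases that end at the start of the RefSeq transcript (GRCm38.p6) are chr3:96293970-96294119 for Fcgr1, chr1:171059404-171059553 for Fcgr3 and chr1:171018776-171018925 for Fcgr4. They are chr7:3845052-3845201 for Pira2 and chr7:3720383-3720532 for Pirb, each on the strand of its gene. Capitals mark GAGGAA or its reverse complement TTCCTC, the core letters of a box bound by the myeloid factor PU.1. The last 6 bases for Fcgr4 and the last 9 for Pirb lie within a GENCODE exon. The Fcgr3 window lies inside the span of the gene given above, outside any GENCODE exon.
Fcgr1: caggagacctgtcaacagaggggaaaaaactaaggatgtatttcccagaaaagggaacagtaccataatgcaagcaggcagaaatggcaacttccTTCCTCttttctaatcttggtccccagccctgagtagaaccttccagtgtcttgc
Fcgr3: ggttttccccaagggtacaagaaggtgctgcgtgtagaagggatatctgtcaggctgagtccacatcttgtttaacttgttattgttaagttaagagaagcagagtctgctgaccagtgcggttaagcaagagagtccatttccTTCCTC
Fcgr4: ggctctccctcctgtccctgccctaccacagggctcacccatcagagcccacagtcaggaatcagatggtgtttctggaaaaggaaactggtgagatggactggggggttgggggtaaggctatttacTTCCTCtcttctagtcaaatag
Pira2: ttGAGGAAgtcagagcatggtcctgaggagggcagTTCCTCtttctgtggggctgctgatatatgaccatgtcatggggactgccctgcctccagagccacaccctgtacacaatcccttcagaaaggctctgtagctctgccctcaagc
Pirb: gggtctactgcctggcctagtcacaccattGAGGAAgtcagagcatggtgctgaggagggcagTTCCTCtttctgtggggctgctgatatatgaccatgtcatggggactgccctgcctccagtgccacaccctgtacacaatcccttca

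GAGGAA was present on either strand in 5 of the 7 members, those printed above, and in 14.4% of 27025 genes with a window of the same length. The members without it were Fcgr2b and Fcer1g. The Fcgr2b window lies inside the gene span given above, and 103 of its 150 bases are within a GENCODE exon, against 16 for Fcer1g. An absent match in the Fcgr2b window therefore says little about the sequence upstream of that gene. Fcgr3 held it in the 6 bases directly before the start of the RefSeq transcript, which lies inside the gene span. Fcgr1 held TTCNNNGAA, the letters of a gamma-activated site, between 109 and 101 bases before the start, a pattern found in 4.17% of genes. Fcgr4 held GAAA, a gap of 2 bases and GAAA, the letters of an interferon-stimulated response element, between 73 and 64 bases before the start, a pattern found in 1.6%. TTCNNNNGAA, the spacing that STAT6 prefers, was in none of the 7 windows and in 3.12% of genes. All motifs were searched on both strands, and a match describes letters, not a bound site. The windows of Pira2 and Pirb, compared over 300 bases of promoter each, shared 264 of 272 aligned bases (97.1%) at an offset of 28 bases, and both hold the box in the same pair of places.

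The likeness of the genes limits how well reads can be assigned. Of all stretches of 31 bases in the transcripts of Pira2, 48.5% also occur in another protein-coding gene, mainly in the PirA-like gene Gm14548 (37.6%) and in Pirb (30.4%). For Pirb the share was 41.5%, with 27.8% in Pira2. The values of Pira2 and Pirb are therefore uncertain in how reads were divided between them. Fcgr3 shared 14.3% of its stretches with Fcgr2b, Fcgr2b shared 6.4% with Fcgr3, Fcgr4 shared 0.8% with any gene, and Fcgr1 and Fcer1g shared 0%. An antisense gene lies opposite Fcgr2b, and whether counting used the strand is not given in the sources used here.

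In Sham brain the common gamma chain and the low-affinity activating receptor were the most abundant of these transcripts. Per length, Fcgr3 stood at 14.3 ± 5.75 TPM (transcript abundance scaled for length and library; mean ± SD, n = 5) and Fcer1g at 12.8 ± 3.43 TPM, and the ranges of the mice overlapped. Fcgr2b (3.47 ± 2.37 TPM) and the high-affinity receptor Fcgr1 (3.37 ± 0.976 TPM) followed with overlapping ranges. Pirb (1.09 ± 0.369 TPM) and Fcgr4 (0.817 ± 0.251 TPM) were lower and also overlapped. Pira2 was at or near 0, with 1 estimated count in 1 of the 5 mice and 0 in the other 4. The inhibitory receptor Fcgr2b contributed 14.8 ± 3.40% of the summed TPM of the 4 Fc gamma receptor genes, and Pirb contributed 99.6 ± 0.804% of that of Pira2 and Pirb.

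**Figure D1:**
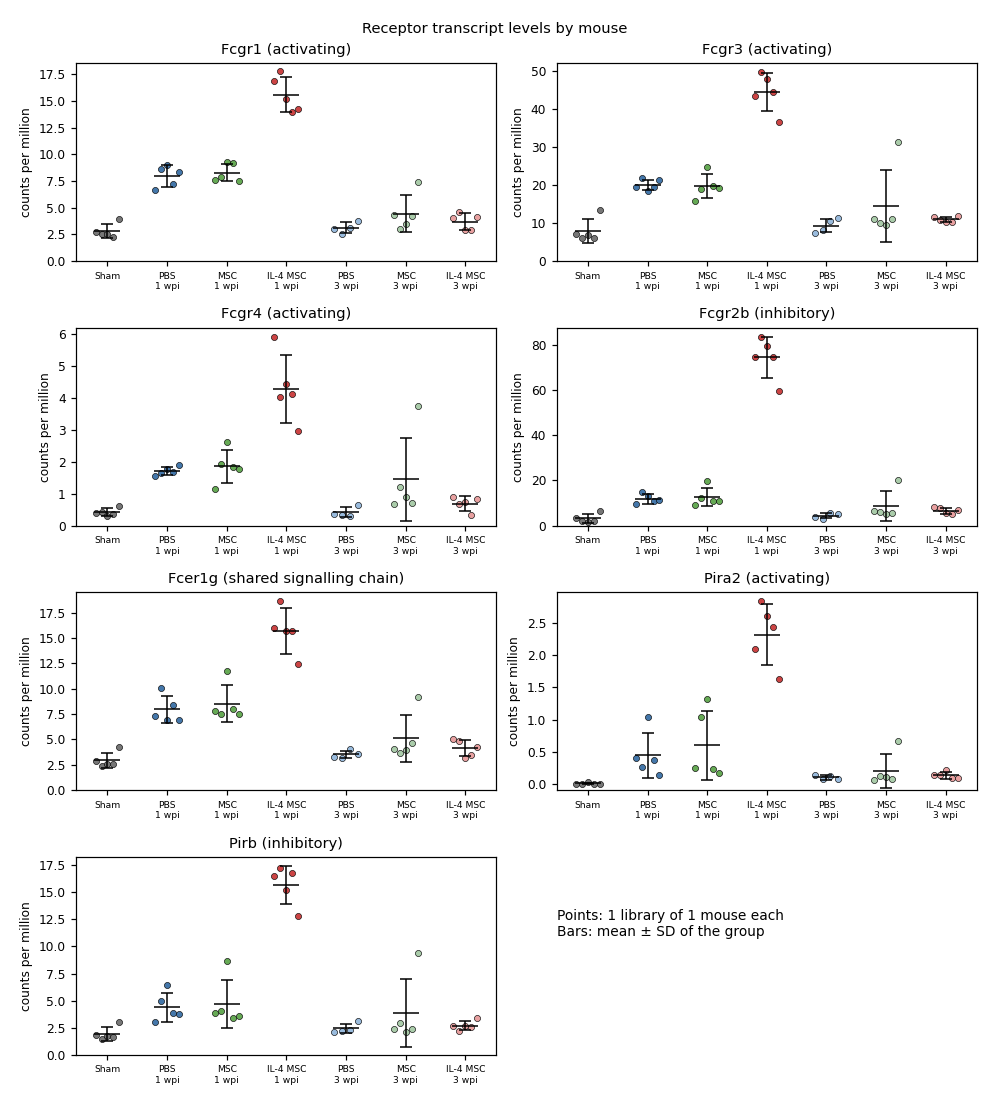
Library-size-scaled counts (CPM, vertical axes on a linear scale that differs between panels) of the 7 genes in every mouse by group. Points are mice and bars give the mean ± SD; n = 5 per group and 4 for PBS at 3 wpi. The 5 IL-4 MSC mice at 1 wpi lie between 59.6 and 83.4 CPM for Fcgr2b, above the highest mouse of any other group (20.3 CPM).

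After injury with PBS, all 7 genes were higher than in Sham at 1 wpi. Of the genes tested, 8.73% were higher in this comparison, and the median log2 fold change was 1.48 over the 7 members against -0.01 over all genes. Fcgr2b stood at 9.44, 14.98, 13.04, 10.7 and 11.3 CPM in the 5 PBS mice and at 3.21, 1.92, 1.75, 2.28 and 6.69 CPM in the 5 Sham mice, of which mouse 5 was the highest. The groups did not overlap, and the log2 fold change was 1.89 ± 0.33 (SE; edgeR, adjusted p = 0.00012). The activating receptors rose by 1.99 ± 0.37 for Fcgr4 (adjusted p = 0.000228), 1.48 ± 0.17 for Fcgr1 (adjusted p = 3.29e-07) and 1.32 ± 0.24 for Fcgr3 (adjusted p = 0.000157) on the log2 scale. Fcer1g rose by 1.40 ± 0.20 on the log2 scale (adjusted p = 6.11e-06). Pirb rose by 1.14 ± 0.32 on the log2 scale (adjusted p = 0.0147), with an overlap, since Sham mouse 5 (3.05 CPM) exceeded PBS mouse 1 (2.98 CPM). Against the Sham mice of the same week alone Pirb did not pass (1.30, adjusted p = 0.0603), and 6 of 7 members were called.

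Pira2 went from near 0 to low levels. It was at 0.409, 0.259, 1.03, 0.370 and 0.140 CPM in the PBS mice at 1 wpi, each above the detectable level of its library and above every Sham mouse. Summed over mice there were 72 estimated counts in PBS against 1 in Sham, a ratio of rates of 73.9 with an exact 95% interval for counting error of 12.8 to 2957. The test across all genes called the difference (adjusted p = 0.000321), but its fitted size depends on the prior count and is not given.

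Treatment with MSCs without IL-4 gave the same calls against Sham, with 7 of 7 members higher where 11.0% of all genes were. Log2 fold changes were between 1.24 (Pirb, adjusted p = 0.00592) and 2.10 (Fcgr4, adjusted p = 7.79e-05) for the 6 genes other than Pira2. Between MSCs and PBS at 1 wpi none of the 7 members differed with edgeR, 0 had an unadjusted p under 0.05 and 0 were called by DESeq2, while 0.123% of all genes were higher in MSCs. The log2 differences lay between -0.04 (Fcgr3, SE 0.22) and 0.44 (Pira2, SE 0.50). Mouse 3 of the MSC group was the highest of its group for Fcgr1, Fcgr3, Fcgr4, Fcgr2b, Fcer1g, Pira2 and Pirb, and also held the most monocyte marker transcripts (69.9 summed CPM against 37.0 to 52.8). Without this mouse Pirb no longer passed against Sham (0.90, adjusted p = 0.0516). The part of such cells in its values was not tested.

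With IL-4 MSCs at 1 wpi all 7 genes were higher again, both than in PBS, where 11.2% of all genes were higher, and than in MSCs, where 7.66% were. The inhibitory receptor Fcgr2b changed most. It stood at 74.8, 83.4, 79.3, 74.7 and 59.6 CPM in the 5 IL-4 MSC mice, against 9.44 to 14.98 CPM in PBS and 9.33, 12.2, 19.6, 10.97 and 10.8 CPM in MSCs. The ratio of the mean CPM to that of PBS was 6.25, and to that of Sham 23.5. The log2 fold change was 2.61 ± 0.29 against PBS (SE; edgeR, adjusted p = 5.85e-08) and 2.54 ± 0.29 against MSCs (adjusted p = 1.30e-07). Against Sham, 7 of 7 members were higher where 18.4% of all genes were, with log2 fold changes from 2.34 (Fcer1g) to 4.49 (Fcgr2b) for the 6 genes other than Pira2.

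The paired receptors came next in size. Pirb, the ITIM-bearing member, was at 16.5, 17.2, 15.2, 16.8 and 12.9 CPM in IL-4 MSCs and at 2.98, 4.94, 6.44, 3.81 and 3.73 CPM in PBS, a log2 fold change of 1.81 ± 0.30 (adjusted p = 3.06e-05). The lowest IL-4 MSC mouse lay above every mouse of the other 6 groups, the next being mouse 5 of MSCs at 3 wpi with 9.41 CPM. Pira2, the activating partner, was at 2.10, 2.84, 2.61, 2.44 and 1.63 CPM, a log2 fold change of 2.36 ± 0.46 against PBS (adjusted p = 0.000368) and 1.92 ± 0.45 against MSCs (adjusted p = 0.00337). Against Sham the ratio of summed rates was 405, with an exact 95% interval for counting error of 72.2 to 16020. The related gene Gm14548, with which Pira2 shares much of its sequence, was itself at 0.719 ± 0.190 CPM with IL-4 MSCs and 0.157 ± 0.183 CPM with PBS at 1 wpi.

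The activating Fc gamma receptors and their signalling chain rose by less. Fcgr3 was at 43.4, 49.8, 47.9, 44.5 and 36.6 CPM in IL-4 MSCs and between 18.5 and 21.8 CPM in PBS, a log2 fold change of 1.11 ± 0.22 (adjusted p = 0.000417). Fcgr1 was at 16.9, 17.8, 15.2, 14.0 and 14.2 CPM against 6.65 to 9.02 CPM in PBS, a log2 fold change of 0.93 ± 0.16 (adjusted p = 6.13e-05). Fcgr4, which binds IgG2 subclasses, was at 5.92, 4.02, 4.44, 4.12 and 2.96 CPM and varied most among the IL-4 MSC mice of these receptors, with a log2 fold change of 1.29 ± 0.30 over PBS (adjusted p = 0.00267). Fcer1g was at 16.02, 18.7, 15.7, 15.6 and 12.4 CPM and differed from PBS by 0.94 ± 0.18 (log2, adjusted p = 0.000333). For each of the 7 genes the 5 IL-4 MSC mice lay above the 5 PBS mice and above the 5 MSC mice at 1 wpi. A gap of this kind was seen in 11.5% of all genes against PBS and in 8.61% against MSCs.

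**Figure D2:**
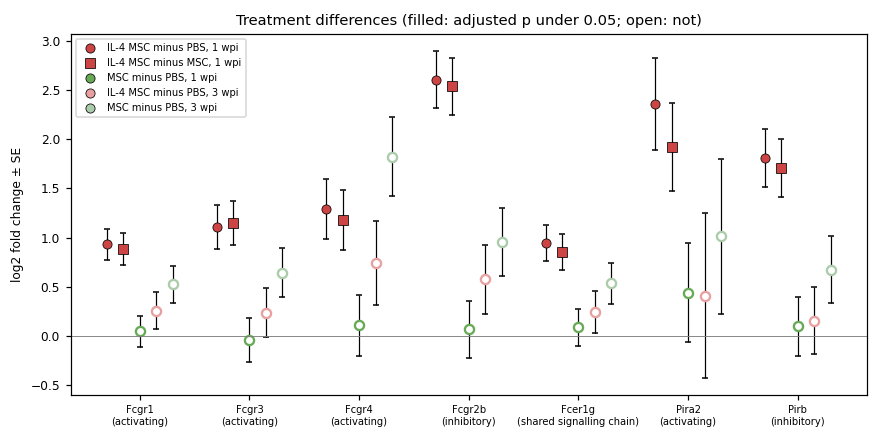
Log2 fold change ± SE (edgeR, vertical axis) of each of the 7 genes (horizontal axis) for IL-4 MSCs against PBS and MSCs against PBS at 1 and 3 wpi and for IL-4 MSCs against MSCs at 1 wpi. Filled symbols mark an adjusted p under 0.05. At 1 wpi Fcgr2b shows the highest fold change of the 7 genes against PBS (2.61) and against MSCs (2.54), and at 3 wpi no filled symbol appears.

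The order of the transcripts therefore differed in this group. In PBS at 1 wpi Fcgr3 (35.9 ± 1.87 TPM) and Fcer1g (34.2 ± 5.36 TPM) led with overlapping ranges, and Fcgr2b (14.1 ± 2.66 TPM), Fcgr1 (8.98 ± 0.973 TPM) and Fcgr4 (3.29 ± 0.249 TPM) followed, each below the one before without overlap. In IL-4 MSCs at 1 wpi Fcgr2b had the highest mean (85.6 ± 8.93 TPM), ahead of Fcgr3 (77.1 ± 7.92 TPM) and Fcer1g (65.8 ± 8.66 TPM), with overlap between neighbours. In the other 6 groups the highest mean was that of Fcgr3, or that of Fcer1g in MSCs at 1 wpi. Pirb (8.54 ± 0.877 TPM) and Fcgr4 (8.06 ± 2.03 TPM) overlapped in IL-4 MSCs, and Pira2 (1.53 ± 0.284 TPM) was the lowest, as in every group.

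**Figure D3:**
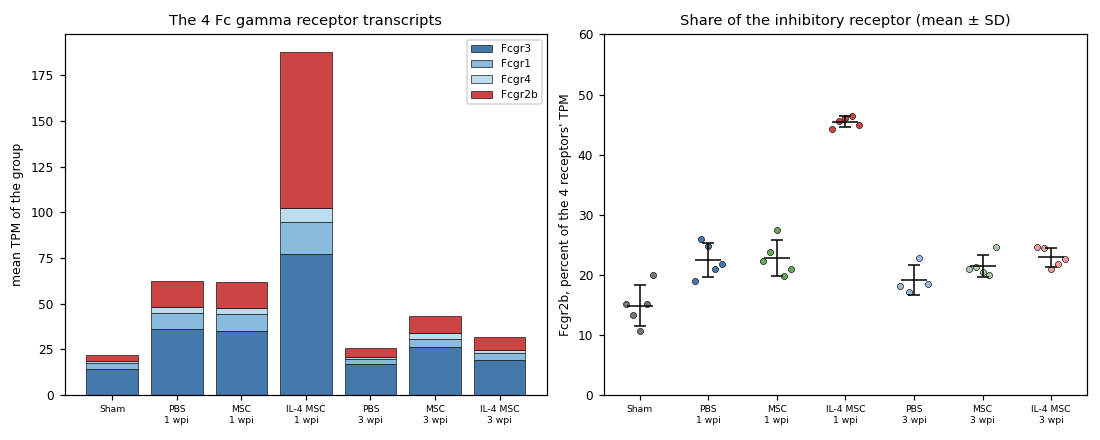
Mean TPM of Fcgr3, Fcgr1, Fcgr4 and Fcgr2b stacked by group (one panel) and the percentage of their sum given by Fcgr2b in each mouse (other panel). Fcgr2b gave 44.3% to 46.5% in the 5 IL-4 MSC mice at 1 wpi and at most 27.5% in any mouse of the other groups.

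Activating and inhibitory receptors were compared within each library, as the log2 ratio of CPM with a prior count of 2, which does not depend on library scaling. Since gene length is not divided out, the ratios are compared between groups and not with 0. Fcgr3 over Fcgr2b was 1.13, 1.62, 1.95, 1.37 and 1.00 in Sham, 1.04, 0.54, 0.51, 0.86 and 0.90 in PBS and 0.75, 0.64, 0.33, 0.84 and 0.84 in MSCs at 1 wpi. In IL-4 MSCs it was -0.78, -0.75, -0.73, -0.75 and -0.70, a narrow range that lay below every mouse of every other group. The difference was -1.51 from PBS and -1.42 from MSCs (two-sided exact permutation of the mice, p = 0.00794 for each, the smallest that 5 against 5 can give; adjusted p = 0.028 over 60 tests). Fcgr1 over Fcgr2b differed by -1.68 and -1.70 and Fcgr4 over Fcgr2b by -1.38 and -1.41 in the same comparisons, each with the same exact p and no overlap. Of the 60 tests, 4 ratios in 15 comparisons, 22 had an adjusted p under 0.05.

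The shift towards the inhibitory receptor was smaller after injury without IL-4. Fcgr3 over Fcgr2b differed from Sham by -0.65 in PBS (adjusted p = 0.0433, exact permutation) and by -0.73 in MSCs (adjusted p = 0.028) at 1 wpi. Fcgr1 over Fcgr2b (-0.55 and -0.53) and Fcgr4 over Fcgr2b (-0.14 and -0.11) did not pass, with adjusted p of 0.119, 0.159, 0.70 and 0.76. In the tests without Sham mouse 5 and MSC mouse 5 at 3 wpi the ratio of Fcgr1 was called as well, at -0.73 in PBS and -0.72 in MSCs (adjusted p = 0.0433 for both). Against the 2 Sham mice of the same week no comparison of 5 mice can reach an exact p below 0.0952, and the ratios of Fcgr3 to Fcgr2b then differed by -0.90 and -0.98. As a share, Fcgr2b made up 22.5 ± 2.86% of the 4 Fc gamma receptor transcripts in the PBS mice at 1 wpi, 22.9 ± 3.00% in the MSC mice and 45.5 ± 0.876% in the IL-4 MSC mice. The summed TPM of the 3 activating chains was 48.2 ± 2.06 in PBS and 102.5 ± 9.72 in IL-4 MSCs, so activating transcripts were also more abundant there while their share was lower.

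**Figure D4:**
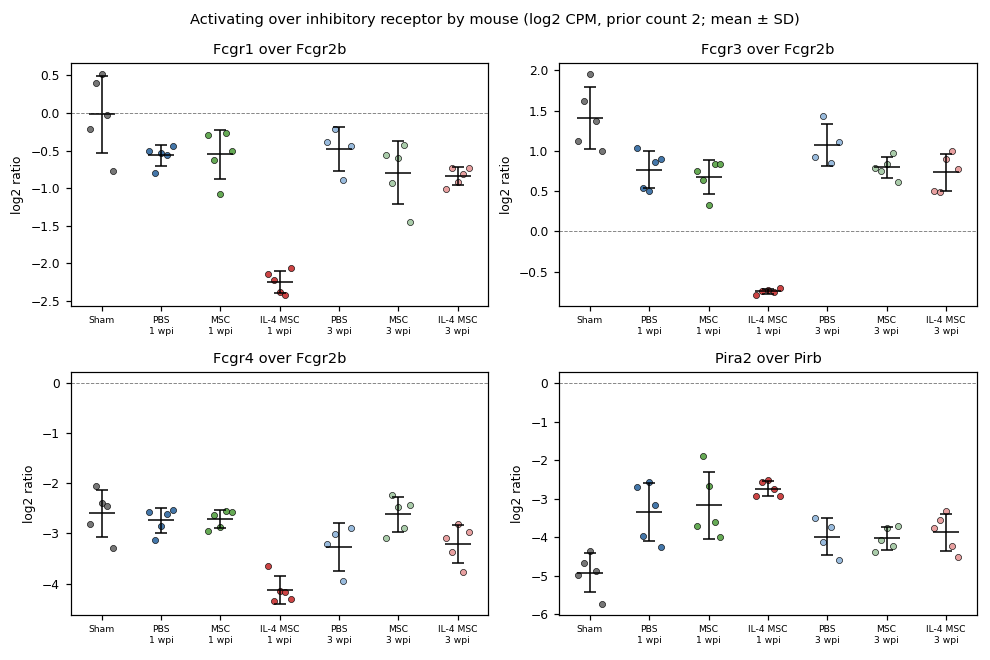
Log2 ratio of an activating to an inhibitory receptor in each mouse (log2 CPM difference, prior count 2, vertical axes) by group, with mean ± SD; n = 5 per group and 4 for PBS at 3 wpi. For the 3 ratios to Fcgr2b the IL-4 MSC mice at 1 wpi have the lowest group mean, at -2.25, -0.74 and -4.12, whereas Pira2 over Pirb in that group (-2.74) overlaps PBS and MSCs at 1 wpi.

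The paired receptors moved differently. Pirb made up 83.3% to 96.0% of the Pira2 and Pirb transcripts in PBS mice, 77.8% to 92.8% in MSC mice and 83.2% to 86.7% in IL-4 MSC mice at 1 wpi. The log2 ratio of Pira2 to Pirb in IL-4 MSCs differed by 0.59 from PBS (adjusted p = 0.22, exact permutation) and by 0.43 from MSCs (adjusted p = 0.443), with overlap. Against Sham the ratio was higher at 1 wpi with PBS, MSCs and IL-4 MSCs (adjusted p = 0.028 each), but in Sham it rests on the prior count, because Pira2 had 0 counts in 4 of 5 mice. The reads that Pira2, Pirb and Gm14548 share add to this uncertainty.

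The levels were also set beside 7 general myeloid markers, Aif1, Csf1r, Itgam, Ptprc, Cd68, Laptm5 and Spi1, as the mean of their log2 CPM in each mouse. Summed, these markers stood at 399 to 485 CPM with IL-4 MSCs, 274 to 338 CPM with PBS and 295 to 383 CPM with MSCs at 1 wpi. Relative to this mean, Fcgr2b with IL-4 MSCs exceeded PBS by 1.90 and MSCs by 1.93 on the log2 scale at 1 wpi, without overlap (exact permutation, adjusted p = 0.0333 over the tests of 7 members in 15 comparisons). With the median of the 7 markers in place of the mean the differences were 1.26 and 1.31 (adjusted p = 0.0439 for both). Pira2 and Pirb were 1.71 and 1.12 higher than in PBS relative to the mean (adjusted p = 0.0333 for both), but 1.07 and 0.48 relative to the median (adjusted p = 0.116 and 0.128). For Fcgr1, Fcgr3 and Fcer1g the direction depended on the summary: the differences from PBS were 0.21, 0.39 and 0.23 relative to the mean and -0.42, -0.25 and -0.41 relative to the median. Fcgr4 gave 0.51 and -0.12. Of the 7 members, only Fcgr2b was thus higher than both PBS and MSCs at 1 wpi at an adjusted p under 0.05 under both summaries.

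Markers of cell types that could carry these receptors moved unequally. Beside them, 11.2% of all genes were higher with IL-4 MSCs than with PBS at 1 wpi. The 5 monocyte markers (Ccr2, Ly6c2, Plac8, F10, Lyz2) summed to 96.1 to 182 CPM with IL-4 MSCs, 26.6 to 62.6 with PBS and 4.86 to 12.8 in Sham, and 5 of 5 were higher with IL-4 MSCs than with PBS (median log2 fold change 2.23). Of 10 microglia markers, such as P2ry12 and Tmem119, 2 were higher, with a median of 0.00 and sums of 415 to 521 CPM with IL-4 MSCs and 392 to 517 CPM with PBS. Neutrophil markers summed to 12.6 to 18.7 CPM with IL-4 MSCs and 8.62 to 21.3 CPM with PBS, and 3 of the 9, among them Ly6g, did not exceed 3 counts in any IL-4 MSC library. Natural killer cell markers rose from between 0.517 and 1.15 CPM in PBS to between 2.18 and 7.64 CPM in IL-4 MSCs, with 3 of the 4 tested called. T cell markers summed to 8.85 to 13.5 CPM with IL-4 MSCs and 5.54 to 7.73 CPM with PBS, without overlap, and 2 of 8 were called higher. Mast cell markers summed to 0.434 to 0.905 CPM with IL-4 MSCs and 0.196 to 0.633 CPM with PBS. The part of these cells in the receptor levels was not tested.

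By 3 wpi the levels in PBS mice were nearer to those of Sham than at 1 wpi. None of the 7 members differed between PBS and Sham with edgeR, where 0.0233% of all genes were higher, with 1 member at an unadjusted p under 0.05 and 0 called by DESeq2. Fcgr2b stood at 3.90, 3.01, 5.79 and 5.15 CPM, within the range of the Sham mice, whose upper end was mouse 5 (6.69 CPM). The other Sham mice reached at most 3.21 CPM. A fit without Sham mouse 5 and MSC mouse 5 at 3 wpi gave larger differences from Sham for every member but Pira2 (edgeR). Fcgr2b differed by 0.96 in place of 0.50 (log2, adjusted p = 0.28) and Fcgr3 by 0.50 in place of 0.23 (adjusted p = 0.199). No member was called in that fit. Pira2 was at 0.137, 0.0705, 0.120 and 0.0729 CPM, above every Sham mouse, with 14 summed counts against 1 (ratio of rates 17.4, exact 95% counting interval 2.65 to 736; adjusted p = 0.85). PBS mice 2 and 4 were under the detectable level of their libraries (0.0966 and 0.0983 CPM). Compared with PBS at 1 wpi, 5 of 7 members had fallen where 4.90% of all genes had. Fcgr4 fell by 2.02 ± 0.40, Fcgr2b fell by 1.39 ± 0.34 and Fcgr1 fell by 1.34 ± 0.19 on the log2 scale (adjusted p = 0.00108, 0.01 and 1.57e-05). Pirb (-0.83, adjusted p = 0.178) and Pira2 (-2.08, adjusted p = 0.0854) did not pass, although the Pira2 values of the groups did not overlap. DESeq2 called Pira2 (adjusted p = 0.0416). In the fit without Sham mouse 5 and MSC mouse 5 at 3 wpi, Pirb (-0.84, adjusted p = 0.0184) and Pira2 (-2.09, adjusted p = 0.0383) were both called. Neither mouse is in the groups compared, and the differences hardly moved.

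In IL-4 MSCs all 7 members had fallen from 1 to 3 wpi, where 16.6% of all genes had. Fcgr2b was at 8.17, 7.62, 5.53, 5.10 and 6.85 CPM at 3 wpi, all far below the 1 wpi mice, and fell by 3.42 ± 0.31 on the log2 scale (adjusted p = 2.31e-10). Pirb fell by 2.48 ± 0.31 (adjusted p = 1.08e-07), Pira2 fell by 4.04 ± 0.55 (adjusted p = 5.82e-07), and Fcer1g fell by 1.85 ± 0.19 (adjusted p = 3.47e-09), the smallest change of the 7. The ratio of Fcgr3 to Fcgr2b was 1.48 higher than at 1 wpi (exact permutation, adjusted p = 0.028) and the share of Fcgr2b was 22.9 ± 1.61%, against 14.8 ± 3.40% in Sham. The ratio still differed from Sham at 3 wpi, by -0.68 in IL-4 MSCs (adjusted p = 0.0433) and by -0.62 in MSCs (adjusted p = 0.028). Without Sham mouse 5 and MSC mouse 5 at 3 wpi the MSC difference was -0.68 and did not pass (adjusted p = 0.0657). Fewer mice raise the smallest exact p, so the lost call does not show a smaller difference. Without both mice the ratio of Fcgr1 to Fcgr2b in IL-4 MSCs was called too (-1.01, adjusted p = 0.0433).

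No member differed between IL-4 MSCs and PBS at 3 wpi with edgeR, where 2.17% of all genes were higher, with 0 at an unadjusted p under 0.05 and 0 called by DESeq2. Log2 differences lay between 0.16 (Pirb, SE 0.34) and 0.74 (Fcgr4, SE 0.43). Striatum markers summed to 522 to 3314 CPM in these IL-4 MSC mice and 358 to 731 CPM in the PBS mice, and 12 of 12 were higher. With the striatum marker score as a covariate no call for a member changed in this comparison. Against Sham, 2.76% of all genes were higher in IL-4 MSCs at 3 wpi and 0 members were called with edgeR, 4 had an unadjusted p under 0.05 and 2 (Fcgr2b and Pira2) were called by DESeq2. Fcgr2b had a log2 difference of 1.07 ± 0.34 (adjusted p = 0.0661), and without Sham mouse 5 and MSC mouse 5 at 3 wpi it was 1.52 (adjusted p = 0.000165). Those libraries were set aside after the data had been seen. Fcgr1, Fcgr3 and Fcer1g were then called as well, with log2 differences of 0.54, 0.73 and 0.65 (adjusted p = 0.0202, 0.000322 and 0.0115).

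The comparisons of MSCs at 3 wpi rested largely on 1 mouse. Fcgr2b stood at 6.33, 5.84, 5.24, 5.62 and 20.3 CPM in the 5 MSC mice, and mouse 5 was the highest of the group for each of the 7 genes. It also held 42.3 summed CPM of monocyte markers and 22.1 of neutrophil markers, against at most 24.2 and 11.96 in the other 4 mice, and the part of those cells was not tested. Against Sham, 3 of 7 members were called higher where 1.11% of all genes were: Fcgr4 (log2 fold change 1.79 ± 0.37, adjusted p = 0.00859), Fcgr2b (1.46 ± 0.34, adjusted p = 0.0207) and Fcer1g (0.78 ± 0.20, adjusted p = 0.0496). All 7 had an unadjusted p under 0.05, and DESeq2 called 6. The call of Fcer1g was lost with RLE size factors (adjusted p = 0.0503), with no or a stricter filter on low counts (0.0562 and 0.0532), with the striatum covariate (0.0557) and with a replicate block (0.0722). Without mouse 5 none of the 3 was called, with 1.07 for Fcgr4 (adjusted p = 0.0987), 0.86 for Fcgr2b (adjusted p = 0.251) and 0.46 for Fcer1g (adjusted p = 0.361). Leaving out both this mouse and Sham mouse 5 gave 1.27 for Fcgr4 (adjusted p = 0.0303), 1.32 for Fcgr2b (adjusted p = 0.00266), 0.63 for Fcer1g (adjusted p = 0.0639) and 0.65 for Fcgr3, which was then called (adjusted p = 0.00344). Against the 3 Sham mice collected at the same week, which include Sham mouse 5, none of the 7 was called.

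From 1 to 3 wpi, 2 of 7 members fell in MSCs where 4.93% of all genes did, Fcgr1 (by 0.86 ± 0.17 on the log2 scale, adjusted p = 0.000977) and Fcer1g (-0.71 ± 0.19, adjusted p = 0.0201). Without MSC mouse 3 at 1 wpi Fcer1g did not pass (-0.57, adjusted p = 0.103). Without MSC mouse 5 at 3 wpi all 7 were called lower. No member passed the test between MSCs and PBS at 3 wpi with edgeR, where 0.0817% of all genes were higher in MSCs. There, 5 members had an unadjusted p under 0.05, and DESeq2 called 1, Fcgr4. Fcgr4 was at 0.691, 1.20, 0.901, 0.707 and 3.74 CPM in MSCs and at 0.371, 0.324, 0.318 and 0.645 CPM in PBS, without overlap (log2 difference 1.82 ± 0.40, adjusted p = 0.0687). No member passed between IL-4 MSCs and MSCs either with edgeR, where 2.29% of all genes were higher in IL-4 MSCs. Here 1 member had an unadjusted p under 0.05, and DESeq2 called 1, Fcgr4 (edgeR log2 difference -1.08 ± 0.35, adjusted p = 0.0786).

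Whether a treatment difference itself changed between the weeks was tested as an interaction. The gap between IL-4 MSC mice and PBS mice was larger at 1 wpi than at 3 wpi for 2 of 7 members, Fcgr2b by 2.03 ± 0.45 (log2, adjusted p = 0.00552) and Pirb by 1.65 ± 0.45 (adjusted p = 0.0273), where 3.93% of all genes were. Pira2 had a value of similar size with a wider error (1.95 ± 1.02, adjusted p = 0.323), and Fcgr1, Fcgr3, Fcgr4 and Fcer1g had values between 0.54 and 0.87 (adjusted p from 0.123 to 0.677). In the fit without Sham mouse 5 and MSC mouse 5 at 3 wpi, Fcgr1, Fcgr3 and Fcer1g were called as well, with values of 0.71, 0.90 and 0.73 (adjusted p = 0.0131, 0.000134 and 0.0203). Neither mouse is in the groups of this interaction, and the values were 0.67, 0.87 and 0.70 with all mice. The calls changed with the estimate of the spread, which all groups share, and hardly with the size of the difference. The gap between IL-4 MSC mice and MSC mice was larger at 1 wpi for 6 of 7, where 5.96% of all genes were, with values from 1.14 ± 0.27 (Fcer1g) to 2.92 ± 0.42 (Fcgr2b), Pira2 being the exception (2.52 ± 0.83, adjusted p = 0.0585). Without MSC mouse 3 at 1 wpi Pira2 passed too (3.06, adjusted p = 0.0154). For MSCs against PBS no member and 0% of all genes had a larger difference at 1 wpi with edgeR, with 2 members at an unadjusted p under 0.05, both with negative values, and 0 called by DESeq2.

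Other Fc receptors moved in both directions. Of 12 listed, 6 passed the filter. Between IL-4 MSCs and PBS at 1 wpi 3 were higher and 1 lower, where 11.2% and 6.16% of all genes were. The median log2 fold change was 0.46 against 0.00 over all genes. Fcrlb, an intracellular Fc receptor-like protein, rose by 2.33 ± 0.19 on the log2 scale (adjusted p = 9.76e-11). Fcgrt, the neonatal Fc receptor that recycles IgG, rose from 14.5 ± 0.781 to 30.4 ± 3.69 CPM (log2 fold change 1.03 ± 0.07, adjusted p = 9.71e-12), and Trim21, the cytosolic IgG receptor, rose by 0.94 ± 0.11 (adjusted p = 1.88e-07). Fcrls, an Fc receptor-like gene of microglia, was 1.39 ± 0.14 higher in PBS than in Sham (adjusted p = 3.09e-08) but lower with IL-4 MSCs than with PBS, at 29.96 ± 3.53 against 43.5 ± 7.01 CPM (-0.57 ± 0.13, adjusted p = 0.0023).

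Among other paired and leukocyte immunoglobulin-like receptors, 20 of the 29 listed were tested. With IL-4 MSCs 11 were higher than with PBS at 1 wpi (median log2 fold change 1.29), where 11.2% of all genes were. The activating receptors Sirpb1c (3.15 ± 0.58, adjusted p = 0.000152), Lilra6 (2.64 ± 0.55, adjusted p = 0.000735) and Cd300lb (2.14 ± 0.39, adjusted p = 0.000158) rose, as did the inhibitory Cd200r1, from 0.826 ± 0.279 to 3.45 ± 0.641 CPM (2.03 ± 0.23, adjusted p = 5.12e-08). The activating 3 started low: in PBS Lilra6 was at 0.120 ± 0.129 CPM, near the detectable level, Sirpb1c at 0.306 ± 0.284 and Cd300lb at 0.550 ± 0.310. With IL-4 MSCs they were at 0.780 ± 0.162, 2.75 ± 1.08 and 2.50 ± 0.726 CPM. Between PBS and Sham the same list also had 11 higher genes, where 8.73% of all genes were higher. Cd200r1 was not among them (0.17 ± 0.25, adjusted p = 0.744).

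Genes of both signalling lists were called, beside 11.2% of all genes that were higher. Of 16 ITAM signalling genes 12 were higher with IL-4 MSCs than with PBS at 1 wpi (median 0.62), led by the Src family kinase Fgr (1.81 ± 0.40, adjusted p = 0.00136). Syk, the kinase recruited by the gamma chain, rose from 8.36 ± 1.37 to 19.3 ± 2.50 CPM (1.17 ± 0.15, adjusted p = 4.99e-07), and the adaptor Lat2 and the kinase Btk rose by 1.12 ± 0.20 and 0.98 ± 0.18 (adjusted p = 0.000109 and 0.000172). Of 8 ITIM signalling genes 6 were higher (median 0.48). The inhibitory adaptors Dok2 and Dok1 rose by 1.75 ± 0.21 and 1.21 ± 0.14 (adjusted p = 1.95e-07 and 6.80e-08), and the phosphatases Ptpn6 (SHP-1) and Inpp5d (SHIP1) by 0.80 ± 0.16 and 0.59 ± 0.09 (adjusted p = 0.000284 and 1.38e-05). At 3 wpi the median log2 differences between IL-4 MSCs and PBS were 0.16 for the ITAM list and 0.27 for the ITIM list.

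The ligands of PirB fell into distinct sets. The MHC class I genes rose with IL-4 MSCs at 1 wpi, H2-K1 from 39.1 ± 5.63 to 191 ± 25.8 CPM (2.26 ± 0.19, adjusted p = 1.24e-10), H2-D1 from 71.3 ± 8.03 to 298 ± 34.4 CPM (2.03 ± 0.16, adjusted p = 3.65e-11) and the light chain B2m from 89.0 ± 10.9 to 283 ± 37.1 CPM (1.63 ± 0.14, adjusted p = 1.43e-10). The myelin ligands did not pass the test against PBS, with log2 differences of -0.01 ± 0.03 for Rtn4 (Nogo, adjusted p = 0.886), -0.01 ± 0.08 for Mag (adjusted p = 0.956) and -0.12 ± 0.05 for Omg (adjusted p = 0.0656). Against Sham at 1 wpi, Omg was lower with PBS (-0.14 ± 0.05, adjusted p = 0.0379) and with IL-4 MSCs (-0.26 ± 0.05, adjusted p = 2.80e-05). Rtn4 was lower too (-0.10 ± 0.03 and -0.11 ± 0.03, adjusted p = 0.0345 and 0.0074), whereas Mag did not pass (adjusted p = 0.891 and 0.78). Unlike Pirb, H2-K1 (0.82 ± 0.20, adjusted p = 0.0205), H2-D1 (0.84 ± 0.17, adjusted p = 0.00672) and B2m (0.54 ± 0.14, adjusted p = 0.0334) were also higher with IL-4 MSCs than with PBS at 3 wpi. Striatum markers differed between these groups (522 to 3314 summed CPM with IL-4 MSCs, 358 to 731 with PBS). H2-K1, H2-D1 and B2m were not tested with the striatum covariate. Of 14 immunoglobulin chain and B lineage genes 9 were tested, with a median log2 difference between IL-4 MSCs and PBS of 0.45 at 1 wpi and of 0.66 at 3 wpi. At 3 wpi 1 was higher, beside 2.17% of all genes.

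Across all 34 libraries the 7 genes followed one another closely. Pearson's r of log2 CPM between members lay between 0.88 (Fcgr4 and Pira2) and 0.98 (Fcgr1 and Fcer1g), and between 0.34 and 0.91 for deviations from the group means. The libraries share the treatment groups and their myeloid content, so these are descriptions. Among all other genes, the pattern of Fcgr2b was most like those of Ctss (r = 0.99), Il10ra, the IL-10 receptor chain (r = 0.98), and Arhgap45 (r = 0.98). That of Pirb was most like those of Il4ra, the IL-4 receptor chain (r = 0.97), Csf2rb (r = 0.97) and Ccr2, a receptor of recruited monocytes (r = 0.97). Pira2 followed Apobr, Ccr2 and Csf2rb (r = 0.95 for each). Fcer1g and Fcgr3 followed the complement gene C1qb (r = 0.99 and 0.98) and the cathepsin Ctsh (r = 0.98 for both), with C1qc and Fermt3 (r = 0.98 for both) as their other closest genes. Fcgr1 followed Lyn, Arpc1b and Hk2 (r = 0.99, 0.98 and 0.98), and Fcgr4 followed Apobec3, Ptprc and Ccl12 (r = 0.97, 0.95 and 0.95).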

How the data were processed

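RNA was sequenced from the injection region of 34 mouse brains. A further mouse listed in the sample labels, PBS at 3 wpi, has no values and is not analysed here. Per the labels and the methods, the authors trimmed reads with cutadapt 2.4, checked them with FastQC 0.11.8, quantified them by pseudoalignment (kallisto 0.46, GENCODE transcripts of protein-coding genes) and ran sleuth 0.30 in R 3.6.1. The deposited table holds estimated counts, which need not be whole and were not normalized, and TPM, which the authors scaled for length and library. Its 63 columns of the authors' own sleuth comparisons (p-values, q-values and fold changes on a log scale, entered here as log2 although the base is not given) were not used.

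Counts were rounded and tested with edgeR 4.0.16 in R 4.3.3 (TMM, filter on low counts by group, quasi-likelihood test, two-sided) in 1 fit of all 7 groups over 17131 genes, with 15 comparisons and 3 interactions. P-values were adjusted by the Benjamini-Hochberg method over all genes tested, and 0.05 was the threshold. CPM was the count scaled to the library total, without TMM. Ratios and levels relative to myeloid markers used log2 CPM with a prior count of 2 and exact permutation of the mice, adjusted over the 60 tests of 4 ratios and over those of 7 members (Python 3.11.15, scipy 1.17.1). Each group's spread is between mice. The analysis scripts were tested on simulated data.

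Alternatives were DESeq2 1.42.0, RLE size factors, other filters on low counts, fits of 2 groups only, Sham of the same week, a replicate block, a striatum covariate, another prior count, the median of the markers, and leaving out each mouse. 1 gene of the monocyte marker list is not reported here and was left out of its values. Members and gene lists were chosen with earlier results of these data known. Named were the 7 members, up to 4 called genes per pathway list by size of change in IL-4 MSCs against PBS at 1 wpi, every PirB ligand, and the 3 genes most correlated with each member.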

Additional observations from a re-analysis of the deposited data

Results flagged for a closer look

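Of 77 group-wise checks, 7 genes and 4 ratios in 7 groups, 15 had a mouse standing apart from the rest of its group by Dixon's criterion, where chance gives about 1 in 20, and all 15 were single genes, none a ratio. Mouse 5 of MSCs at 3 wpi was the high value in 7 of them, with 7.38 CPM for Fcgr1 (next mouse 4.28), 31.3 for Fcgr3 (11.1), 3.74 for Fcgr4 (1.20), 20.3 for Fcgr2b (6.33), 9.14 for Fcer1g (4.68), 0.672 for Pira2 (0.123) and 9.41 for Pirb (2.97). Sham mouse 5 was high for Fcgr3 (13.4 CPM, next 7.08), Fcer1g (4.27, next 2.89) and Pirb (3.05, next 1.79). Mouse 3 of MSCs at 1 wpi was high for Fcgr2b (19.6 CPM, next 12.2), Fcer1g (11.8, next 8.03) and Pirb (8.64, next 4.06). Mouse 4 of PBS at 3 wpi was high for Fcgr4 (0.645 CPM, next 0.371). Sham mouse 3 was the only Sham mouse with any Pira2 (0.0288 CPM), which is 1 count and under the detectable level.

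A treatment difference that changed between the weeks, by the edgeR interaction test, was found for 8 gene and comparison pairs. The difference of IL-4 MSCs from PBS was larger at 1 wpi than at 3 wpi by 2.03 (log2) for Fcgr2b and 1.65 for Pirb. The difference of IL-4 MSCs from MSCs was larger by 2.92 for Fcgr2b, 2.26 for Fcgr4, 2.22 for Pirb, 1.55 for Fcgr3, 1.15 for Fcgr1 and 1.14 for Fcer1g. The values of MSCs at 3 wpi that enter the latter include mouse 5.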

How the results depend on the processing

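In every alternative run, all 7 members were called higher with IL-4 MSCs than with PBS, MSCs or Sham at 1 wpi and lower at 3 wpi than at 1 wpi in IL-4 MSCs. The log2 fold change of Fcgr2b against PBS at 1 wpi stayed between 2.54 and 2.72, and its 3 ratios kept their calls against PBS and MSCs when any mouse was left out. The number of members called moved by over 1.5 times as follows. DESeq2 called 6 for MSCs against Sham, 2 for IL-4 MSCs against Sham, 1 for MSCs against PBS and 1 for IL-4 MSCs against MSCs, all at 3 wpi. For MSCs at 3 wpi against Sham, 0 were called with the Sham mice of the same week, which include Sham mouse 5, or with 2 groups in the fit. For MSCs at 3 wpi against MSCs at 1 wpi the fit of 2 groups called 1. Without Sham mouse 5 and MSC mouse 5 at 3 wpi, an alternative chosen after seeing the data, 4 were called for IL-4 MSCs at 3 wpi against Sham, 7 between the weeks in MSCs and 5 for the interaction of IL-4 MSCs and PBS. The groups of that interaction, and those of PBS between the weeks, hold neither mouse. Leaving out each mouse gave 0 to 6 for MSCs at 3 wpi against Sham (6 without MSC mouse 3, 5 without MSC mouse 2 or Sham mouse 5, 1 without any other Sham mouse, 0 without MSC mouse 5), at 3 wpi 0 to 1 for IL-4 MSCs against Sham (1 without Sham mouse 5), for MSCs against PBS (1 without MSC mouse 1, 3 or 4) and for IL-4 MSCs against MSCs (1 without MSC mouse 1 or 4), 1 to 7 between the weeks in MSCs (7 without MSC mouse 5 at 3 wpi, 1 without MSC mouse 3 at 1 wpi or MSC mouse 1, 2 or 3 at 3 wpi), and 1 to 2 for the interaction of IL-4 MSCs and PBS (1 without PBS mouse 1 at 1 wpi or PBS mouse 4 at 3 wpi). Smaller moves were 6 in place of 5 between the weeks in PBS and 7 in place of 6 for the interaction of IL-4 MSCs and MSCs with DESeq2, 7 between the weeks in PBS without both mice, and 6 in place of 7 for PBS at 1 wpi against the Sham mice of the same week.

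Of the 4 ratios, the number called against Sham was 0 for all 3 treatments at 1 wpi and for both MSC treatments at 3 wpi with the Sham mice of the same week, where 5 against 2 or 3 mice allow exact p-values no smaller than 0.0952 and 0.0357. It was 1 for PBS at 3 wpi with a prior count of 0.5. For MSCs at 3 wpi it was 0 without both mice, where fewer mice also raise the smallest exact p. Leaving out each mouse gave 0 to 3 for PBS and for MSCs and 0 to 4 for IL-4 MSCs against Sham at 1 wpi, 0 to 2 for MSCs and for IL-4 MSCs against Sham at 3 wpi, 0 to 1 between the weeks in MSCs and 0 to 4 between the weeks in IL-4 MSCs, since fewer mice raise the smallest exact p.

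With the median of the myeloid markers in place of their mean, 19 differences that were called under at least 1 of them changed sign. The log2 differences under the median were, for Fcgr1, -0.26, -0.30, -0.68 and -0.46 against Sham (PBS, then MSCs, then IL-4 MSCs, 1 wpi; MSCs, 3 wpi), -0.38 for IL-4 MSCs against MSCs at 1 wpi and 0.20 between the weeks in IL-4 MSCs. For Fcgr3 they were -0.50 and -0.61 against Sham (MSCs, then IL-4 MSCs, 1 wpi), -0.25 and -0.11 for IL-4 MSCs against PBS and MSCs, and 0.27 between the weeks. For Fcer1g they were -0.34, -0.74 and -0.36 against Sham (MSCs, then IL-4 MSCs, 1 wpi; MSCs, 3 wpi), -0.41 and -0.40 for IL-4 MSCs against PBS and MSCs, and 0.36 between the weeks. Fcgr4 gave -0.0941 for IL-4 MSCs against MSCs, and Pirb gave -0.13 for IL-4 MSCs at 1 wpi against Sham. The cause was not tested.

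The replicate numbers were not found to pair the mice: deviations from group means of 99 same-numbered pairs correlated between -0.46 and 0.40 (median 0.01), with 24 over 0.1, and 6 of 34 mice correlated best with their own number. With a replicate block the number of members called was 7 in place of 6 for the interaction of IL-4 MSCs and MSCs, through Pira2 (2.75, adjusted p = 0.0308), and for MSCs at 3 wpi against Sham Pira2 was called (adjusted p = 0.046) and Fcer1g was not (0.77, adjusted p = 0.0722). Depth limited Pira2 most, with no more than 1 count in any Sham library.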
